A study of Homo sapiens with 4 samples.

Results

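The BCL2 family sets the threshold for the mitochondrial pathway of apoptosis. Anti-apoptotic members hold the effectors BAX and BAK1 in check at the outer mitochondrial membrane, and the BH3-only members, which share a short helix with the rest of the family, either occupy the anti-apoptotic proteins or activate the effectors. Once BAX or BAK1 opens the membrane, cytochrome c escapes and starts the caspase cascade. In erythroid and megakaryocytic cells BCL2L1, which encodes BCL-XL, is known as a main survival gene. The 10 family genes described here were chosen by name, with earlier results of these data known. They are the anti-apoptotic BCL2, BCL2L1, MCL1 and BCL2A1, the effectors BAX and BAK1, and the BH3-only genes BCL2L11 (BIM), BBC3 (PUMA), PMAIP1 (NOXA) and BID. All 10 were found by NCBI gene number among the 25702 genes listed.

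The libraries came from K562, an established human myeloid leukemia line, and were made from poly(A)-enriched RNA of cells given the LeGO-iG2 plasmid with RUNX1::ERG or the empty LeGO-iG2 vector, with 2 biological replicates in each group and no further treatment. RUNX1::ERG is a fusion gene from pediatric acute myeloid leukemia whose protein keeps the Runt and Ets DNA-binding domains. The plasmid, which also encodes green fluorescent protein, was delivered by transient transfection into 1 cell line, so each library can mix cells with and without it, and a change in the share of cells cannot be told apart from a change per cell. The study states that its K562 protocol reached most cells, judged by green fluorescent protein. No share for each library was used here. Library totals ran from 59695387 to 82352144 counts. By a limit of 3 counts, 0 counts allow a level of up to 0.0364 to 0.0503 CPM, the count scaled to library depth. This limit covers counting error only and takes counts as independent. Where both mates of a pair were counted, it is too low.

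The labels held for the transfected genes. Both empty vector libraries held 4 ERG counts, where RUNX1::ERG replicate 1 held 80443 and replicate 2 held 27218, and RUNX1 was at 78.6 and 49 against 786 and 400 normalized CPM, which are counts scaled to a common library size. RUNX1::ERG replicate 1 thus carried more of both than replicate 2. All 10 K562 marker genes were detected, with summed levels from 12179 to 14473 normalized CPM over the 4 libraries. HBE1 alone made up 6617 of the 12179 in empty vector replicate 1. Among the 10, edgeR called 1, TAL1, which was higher (1.6-fold, adjusted p = 0.025). Over all genes tested, edgeR called 4.79%, and 3.64% were higher. HBZ was at 966 and 1100 against 753 and 615 and was not called. The 13 markers of T, B, myeloid and fibroblast cells summed to 48.7 and 52.8 normalized CPM with the empty vector and to 69.3 and 67.8 with RUNX1::ERG, with MS4A1 at 0 counts in every library. Of the 13, 8 were tested and 3 were called higher by edgeR, where 3.64% of all genes tested were. The 3 were CD14 (9.61-fold, adjusted p = 0.0058), COL1A1 (5.37-fold, adjusted p = 0.0002) and LYZ (2.18-fold, adjusted p = 0.021). CD3D was at 32.5 and 34.7 against 20.5 and 23.6 (adjusted p = 0.09). The 8 megakaryocyte or platelet markers summed to 74.3 and 85 against 491 and 429, with GP9 and TREML1 at no more than 2 counts in a library. Of the 6 tested, edgeR called 5, all higher, against the same 3.64% of all genes tested. They were PF4 (638-fold, from 0 and 2 counts), PPBP (328-fold, from 2 and 6 counts), ITGB3 (24.9-fold), ITGA2B (18.7-fold) and TUBB1 (2.13-fold). GP1BA was not called. The part of these cell types in the results below was not tested.

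Of the 10 members, 1 passed an adjusted p of 0.05 between RUNX1::ERG and the empty vector in the quasi-likelihood test of edgeR, adjusted over 15394 genes by Benjamini-Hochberg. That gene, BCL2L1, was higher. Over all genes tested, 4.79% were called, 3.64% higher and 1.15% lower. Both RUNX1::ERG libraries lay above both empty vector libraries for 2 members, BCL2L1 and BCL2A1, against 25.1% of all genes tested, and below them for 2, MCL1 and PMAIP1, against 22.1%. The other 6 overlapped between groups. The median log2 fold change of the 10 members was 0.03, and that of all genes was 0.00. With 2 libraries in each group the smallest p of an exact permutation test is 0.33, and each adjusted p rests on the spread that edgeR estimated across genes.

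**Figure D1:**
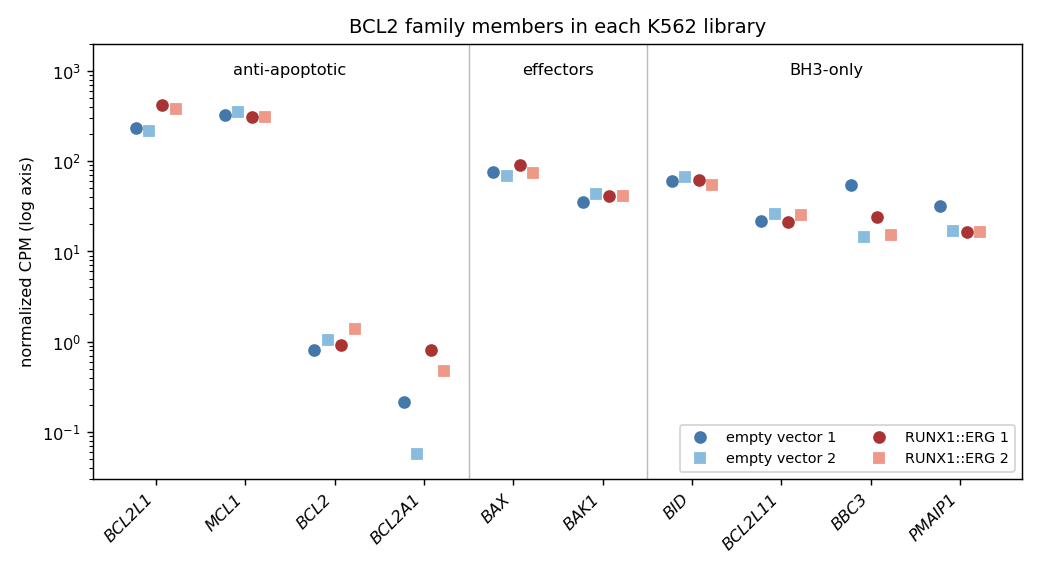
Normalized CPM of the 10 members in each of the 4 libraries, on a log axis, with 1 point for each library. BCL2L1 was at 236 and 215 with the empty vector and at 419 and 380 with RUNX1::ERG, while BBC3 was highest in empty vector replicate 1, at 54.

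BCL2L1 (NCBI gene 598, minus strand of GRCh37 chromosome 20, 30252255 to 30311792) was the member that rose. Its counts were 14235 and 15141 in empty vector replicates 1 and 2 and 35322 and 27337 in RUNX1::ERG replicates 1 and 2. In normalized CPM these were 236 and 215 against 419 and 380. The groups stood apart, and the replicates of each lay close together. The means were 226 ± 15.3 (SD, n = 2) and 400 ± 27.4 (SD, n = 2), which is 1.77-fold. The log2 fold change was 0.83 ± 0.15 (SE, standard error), with an adjusted p of 0.011 from edgeR's quasi-likelihood test. It kept its direction without each library in turn, from 0.75 to 0.89, but without RUNX1::ERG replicate 1 it was at 0.75 and no longer passed, with an adjusted p of 0.083 from edgeR. The antisense genes BCL2L1-AS1 and ABALON lie over this gene and were not analysed here, and the strand setting of the counting is not given, so their reads cannot be told apart. BCL2L1 makes a long, protective and a short, pro-apoptotic protein by alternative splicing, and counts per gene do not separate them.

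The sequences around the annotated starts of BCL2L1 are shown because the gene was called and the fusion keeps 2 DNA-binding domains. The study reports that the fusion lacks the activation domains of both proteins. In its reporter assays in another cell line, the fusion could weaken activation by RUNX1 and by ERG. Binding of the fusion to the windows shown here was not tested. RefSeq windows on GRCh38.p14, from 250 bases before to 30 bases after each start, were available for 9 of the 10 members, all but MCL1, as 14 windows that in part overlap. They were searched on both strands for TGTGGT (reverse complement ACCACA), a core that RUNX factors bind, and for CGGAAG (reverse complement CTTCCG), a core that ETS factors bind. These letters were chosen after the windows had been read. Capitals mark the matches, each line reads 5′ to 3′ on the strand of the gene, and positions count from 1 at the start, with negative values before it.
BCL2L1, upstream start, chr20:31723934-31724213, minus strand: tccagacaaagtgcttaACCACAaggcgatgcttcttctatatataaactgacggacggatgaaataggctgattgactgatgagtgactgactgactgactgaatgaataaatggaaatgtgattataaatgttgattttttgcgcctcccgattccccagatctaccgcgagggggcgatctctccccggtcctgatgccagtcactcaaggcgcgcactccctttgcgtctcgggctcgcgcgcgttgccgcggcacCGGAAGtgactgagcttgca
BCL2L1, downstream start, chr20:31722839-31723118, minus strand: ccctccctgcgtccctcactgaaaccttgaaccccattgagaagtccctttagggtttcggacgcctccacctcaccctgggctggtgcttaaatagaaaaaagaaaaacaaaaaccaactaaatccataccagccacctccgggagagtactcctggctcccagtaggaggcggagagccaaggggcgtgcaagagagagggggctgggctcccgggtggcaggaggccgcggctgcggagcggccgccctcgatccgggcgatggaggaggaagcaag
BCL2, chr18:63319740-63320019, minus strand: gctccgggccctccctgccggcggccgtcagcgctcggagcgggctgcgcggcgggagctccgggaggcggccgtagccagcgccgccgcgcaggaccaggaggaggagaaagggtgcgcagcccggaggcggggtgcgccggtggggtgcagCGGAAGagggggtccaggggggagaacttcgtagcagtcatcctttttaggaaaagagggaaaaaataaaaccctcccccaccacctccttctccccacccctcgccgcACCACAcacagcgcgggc

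The upstream BCL2L1 window held ACCACA at position -233 and CGGAAG at position 11, and the downstream window held neither. Only these exact letters were searched, so a window without them can still hold other forms of RUNX or ETS sites. The BCL2 window held CGGAAG at position -97 and ACCACA at position 13. These 2 of the 14 windows held both cores, and the other 12 held neither. Of all 35116 windows of the same length, 12.3% held the first core, 18.7% the second and 1.67% both, and the 2 cores share no letters where they match here. Because the letters were chosen after the windows had been read, these shares cannot show whether 2 of 14 is many. BCL2, the other member whose window held both, was not called.

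MCL1 (GRCh37 chr1:150533371-150552214), a short-lived anti-apoptotic protein that binds BAK1 and NOXA, had levels of 327 and 348 normalized CPM with the empty vector, against 309 and 313 with RUNX1::ERG. Both RUNX1::ERG libraries lay slightly lower. The log2 fold change was -0.12 ± 0.14 (SE), at an edgeR adjusted p of 0.75, so the gap was within the error of the fit. BCL2 (chr18:60790579-60987361), the founding member and the target of venetoclax, was barely expressed, with 49 and 74 counts against 77 and 100. The groups overlapped, at 0.814 and 1.05 against 0.913 and 1.39 normalized CPM, and the log2 fold change was 0.30 ± 0.43 (SE), at an edgeR adjusted p of 0.79. BCL2A1 (chr15:80253234-80263538), an NF-kB-responsive anti-apoptotic gene of blood cells, had 13 and 4 counts with the empty vector and 68 and 34 with RUNX1::ERG. The groups did not overlap, but a value that rests on so few reads is imprecise: the log2 fold change was 2.25 ± 0.71 (SE) with an adjusted p of 0.11 from edgeR, and it was 3.46, with an adjusted p of 0.0062, without empty vector replicate 1.

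Neither effector nor any BH3-only member passed the test in edgeR, DESeq2 or limma voom, and none had an unadjusted p under 0.05 in edgeR. BAX (chr19:49458072-49465055) was at 75.4 and 68 against 92.1 and 74.3 normalized CPM, so the highest empty vector library lay above the lower RUNX1::ERG library. The log2 fold change was 0.21 ± 0.17 (SE), at an edgeR adjusted p of 0.58. BAK1 (chr6:33540324-33548070) was at 35 and 43.1 against 41.5 and 41.6 normalized CPM, with both RUNX1::ERG libraries inside the range of the empty vector. Its log2 fold change was 0.09 ± 0.18 (SE), at an edgeR adjusted p of 0.86.

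All 4 BH3-only members had fitted log2 fold changes below 0, where the median over all genes tested was 0.00. The sign was not stable for BCL2L11, at 0.01 with library totals, or for BBC3, at 0.46 without empty vector replicate 1. BAD and BMF, BH3-only genes outside the chosen members, lay above 0, at 1.13 and 1.73. BID (chr22:18216904-18257536), which caspase 8 cleaves to link death receptors to mitochondria, was at 60.4 and 67 against 62 and 54.3 normalized CPM, and BCL2L11 (chr2:111876955-111926021), whose product BIM binds every anti-apoptotic member, at 21.6 and 26.1 against 21.1 and 25.5. Their groups overlapped, with log2 fold changes of -0.13 ± 0.16 (SE) and -0.03 ± 0.20 (SE). MIR4435-2HG runs over BCL2L11 on the opposite strand, as ADAMTSL4 overlaps MCL1 and GGNBP1 overlaps BAK1, and without the strand setting their reads cannot be told apart.

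BBC3 (chr19:47724079-47736023) and PMAIP1 (chr18:57567228-57571537) are known as targets of the stress response through CHOP (DDIT3) and ATF4, and each was highest in 1 empty vector library. BBC3 had 3255 and 1015 counts in empty vector replicates 1 and 2 and 2058 and 1093 in RUNX1::ERG replicates 1 and 2, or 54 and 14.4 against 24.4 and 15.2 normalized CPM. Empty vector replicate 1 was 3.75-fold above replicate 2, a wider gap than that between the group means. The log2 fold change was -0.79 ± 0.46 (SE), at an edgeR adjusted p of 0.43, and without empty vector replicate 1 it turned to 0.46. PMAIP1 was at 31.6 and 16.8 normalized CPM against 16.4 and 16.4. The RUNX1::ERG libraries lay level with empty vector replicate 2, and the log2 fold change of -0.56 ± 0.27 (SE), at an edgeR adjusted p of 0.32, was -0.03 without empty vector replicate 1. Without empty vector replicate 2 the log2 fold changes were -1.45 for BBC3 and -0.95 for PMAIP1, and both then passed, with adjusted p-values of 5.7e-08 and 0.0031 from edgeR. With 1 library in a group, this fit takes that library to vary as the other group does.

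DDIT3, the gene of CHOP, showed the same order among the empty vector libraries, at 92.1 and 27.7 normalized CPM, against 34.2 and 24.9 with RUNX1::ERG. Its log2 fold change was -1.02 ± 0.42 (SE), at an edgeR adjusted p of 0.22, and 0.09 without empty vector replicate 1. ATF4, named here after its values were seen, was at 443 and 252 against 258 and 234. So was FOXO3, another transcription factor known to act on family genes, which was at 63 and 39.4 against 38.3 and 40.2. Other such factors were not highest in empty vector replicate 1, NFKB1 among them, at 35.4 and 44.1 against 36.2 and 42.2. The part of a stress response of empty vector replicate 1, or of FOXO3, in the BBC3 and PMAIP1 values was not tested.

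**Figure D2:**
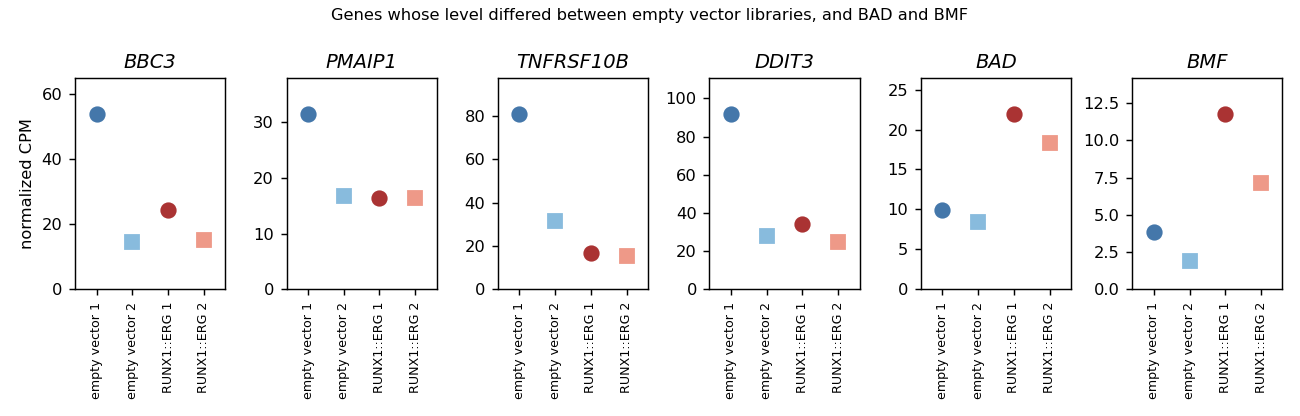
Normalized CPM of BBC3, PMAIP1, TNFRSF10B, DDIT3, BAD and BMF in each library, on linear axes that start at 0. In the first 4 panels empty vector replicate 1 is the highest point (BBC3 at 54, DDIT3 at 92.1), and in the last 2 both RUNX1::ERG points lie above both empty vector points (BAD at 22 and 18.3 against 9.93 and 8.42).

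Levels of different members were compared as normalized CPM per kilobase of merged exons. With the empty vector MCL1 and BCL2L1 led, at 54.2 ± 2.35 and 53.7 ± 3.65 (SD, n = 2), and their libraries overlapped. BAX followed at 27.7 ± 2.03, then BAK1 at 17.6 ± 2.57, BID at 14.4 ± 1.05, PMAIP1 at 11.1 ± 4.81, BBC3 at 10.7 ± 8.8 and BCL2L11 at 3.54 ± 0.473 (SD, n = 2). PMAIP1 overlapped with both of its neighbors in this order, BID and BBC3. BCL2A1 and BCL2 came last, at 0.137 ± 0.113 and 0.0739 ± 0.0132, and overlapped. With RUNX1::ERG the order was the same except at the top, where BCL2L1, at 95.2 ± 6.52, stood apart from MCL1, at 50 ± 0.532 (SD, n = 2). PMAIP1 and BBC3 were then the only neighbors whose libraries overlapped. Per kilobase of the longest transcript, BID (25.5) and BBC3 (18.5) lay above BAK1 (17.6) with the empty vector, and BBC3 (10.7) lay below BAK1 (18.8) with RUNX1::ERG, so the middle of the order rests on the length used.

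Among the 4 anti-apoptotic members, BCL2L1 thus made up 51.6% and 47.7% of the summed level per kilobase in the empty vector libraries and 66.4% and 64% in the RUNX1::ERG libraries. MCL1 made up 48.1% and 52.1%, and then 33% and 35.6%. BCL2A1 and BCL2 together stayed below 1% of the sum in every library. Among the 6 pro-apoptotic members, BAX had the largest share, at 31.2% and 34.1% with the empty vector and 41.1% and 37.8% with RUNX1::ERG. BBC3 held 18.2% in empty vector replicate 1 and between 5.87% and 8.84% in the other 3 libraries. Both sums hold the chosen members only, so these are not shares of the whole family. Outside both sums, BCL2L2 was at 74.2 and 52.6 against 69.6 and 51.2 normalized CPM, and BAD at 9.93 and 8.42 against 22 and 18.3. A share moves when any member of its sum moves, and 2 libraries in each group allow no exact permutation p below 0.33.

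The rest of the family was read from a list of 13 genes, of which 9 passed the filter on low counts. Of these, 2 were called and both were higher, where 3.64% of all genes tested were called higher. They were BAD and BMF, BH3-only genes that are known to be held back by phosphorylation and by binding to the dynein light chain. BAD had 598 and 594 counts with the empty vector and 1856 and 1312 with RUNX1::ERG, or 9.93 and 8.42 against 22 and 18.3 normalized CPM. The groups stood apart by 2.19-fold, and the log2 fold change was 1.13 ± 0.21 (SE), at an edgeR adjusted p of 0.013. GPR137 overlaps BAD on the opposite strand, as BMF-AS1 does BMF. BMF was at 3.87 and 1.86 against 11.8 and 7.16 normalized CPM. All RUNX1::ERG values were higher, with a log2 fold change of 1.73 ± 0.37 (SE), at an edgeR adjusted p of 0.027. Neither kept its call without RUNX1::ERG replicate 1, where BAD was at 0.99 (adjusted p = 0.11 from edgeR) and BMF at 1.33 (adjusted p = 0.17). BCL2L1, BAD and BMF were each higher in RUNX1::ERG replicate 1, the library with more ERG counts, than in replicate 2, by 1.1-fold, 1.21-fold and 1.65-fold, and each was also higher in empty vector replicate 1 than in replicate 2, by 1.1-fold, 1.18-fold and 2.08-fold. None of the windows of BAD and BMF held the exact letters of either core, and other forms of the sites were not searched. The other 7 tested genes had log2 fold changes from -0.22 to 1.07, and the 4 that were not tested, BCL2L10, BCL2L14, BCL2L15 and HRK, had at most 10 counts in a library.

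**Figure D3:**
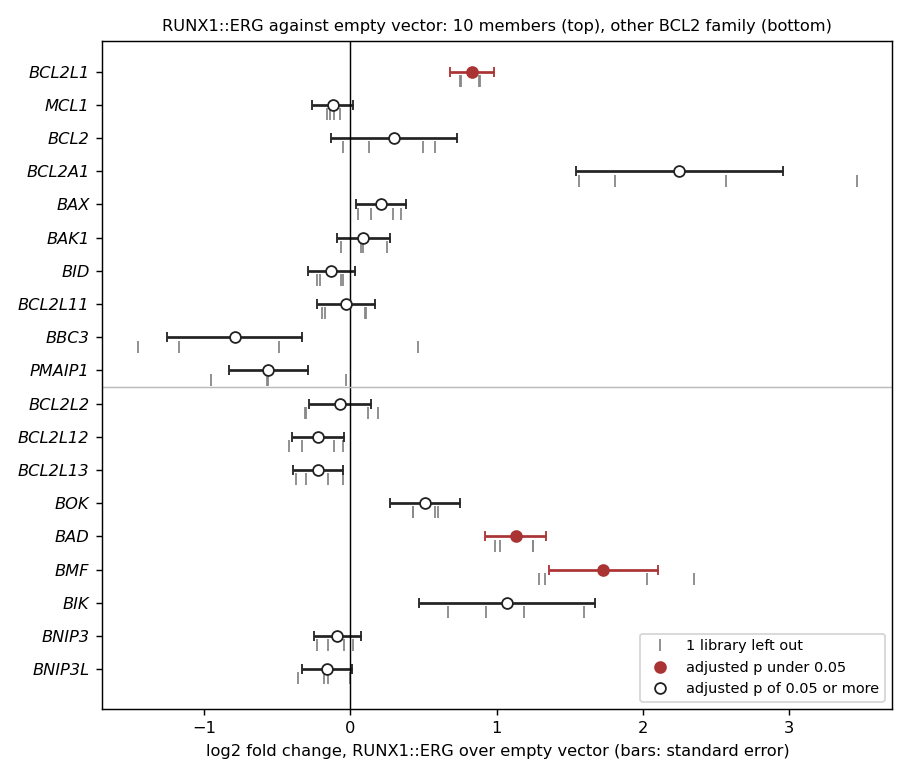
Log2 fold change of RUNX1::ERG over empty vector for the 10 members (top) and the 9 tested other family genes (bottom). Points are edgeR estimates with standard errors, filled red where the adjusted p was under 0.05, and grey ticks are the estimates with 1 library left out. BCL2L1 (0.83), BAD (1.13) and BMF (1.73) are the red points, and the ticks of BBC3 run from -1.45 to 0.46.

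Beyond the family, 5 further lists of the apoptosis pathway were read. With the other family genes they held 62 genes, of which 57 were tested and 5 called, 2 higher and 3 lower. Over all genes tested, 4.79% were called, 3.64% higher and 1.15% lower. Their median log2 fold change was 0.04. Of the 13 genes of the apoptosome and caspases, all tested, edgeR called 0, with 2 at an unadjusted p under 0.05, while DESeq2 called 1 and limma voom 0. The fitted value was above 0 for 10 of them, with a median log2 fold change of 0.13, against 0.00 over all genes tested. APAF1, the scaffold on which caspase 9 is activated, was at 24 and 21.6 against 32.2 and 40.6 normalized CPM, with a log2 fold change of 0.67 ± 0.19 (SE), at an edgeR adjusted p of 0.076. Its groups stood apart without passing the threshold, which it passed in 4 of the 11 alternatives.

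Of the 6 inhibitors of apoptosis, edgeR called 0, with 1 at an unadjusted p under 0.05, while DESeq2 called 1 and limma voom 0. BIRC7 (livin), a gene of 14 and 35 counts against 167 and 76, had a log2 fold change of 2.05 ± 0.53 (SE), at an edgeR adjusted p of 0.055, and BIRC3, with at most 20 counts in a library, one of 0.95 ± 0.88 (SE), which was 0.11 without empty vector replicate 2 and 2.85 without empty vector replicate 1. BIRC7 lay near the threshold and passed it in 8 of the 11 alternatives. Of the 8 genes for outer membrane channels and for the turnover of family proteins, edgeR, DESeq2 and limma voom called 0, with 0 at an unadjusted p under 0.05 in edgeR. HUWE1, a ubiquitin ligase for MCL1, was at 258 and 217 against 239 and 398 normalized CPM, with a log2 fold change of 0.42 ± 0.22 (SE), and was at 0.00 without RUNX1::ERG replicate 2. MARCHF5, a ligase of the outer membrane, was at -0.33 ± 0.18 (SE).

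The death receptor list held 2 of the 3 pathway genes called lower. Of its 9 genes 8 were tested, and 2 were called lower, the TRAIL receptors TNFRSF10A and TNFRSF10B, where 1.15% of all genes tested were called lower. TNFRSF10A went from 34.3 and 39.4 normalized CPM to 17.5 and 17.8, and the groups stood apart. Its log2 fold change was -1.06 ± 0.18 (SE), at an edgeR adjusted p of 0.0088, and without RUNX1::ERG replicate 1 it was -1.05 with an adjusted p of 0.054. TNFRSF10B, a gene known to respond to CHOP, was at 81.1 and 31.4 against 16.8 and 15.5. Its log2 fold change was -1.80 ± 0.35 (SE), at an edgeR adjusted p of 0.016. It kept its direction without each library in turn, from -2.33 to -0.96. The latter was the value without empty vector replicate 1, where DDIT3 was also highest. The part of a stress response in the TNFRSF10B values was not tested. Opposite-strand genes overlap both, TNFRSF10A-DT and RHOBTB2 among them. With the DESeq2 Wald test TNFRSF10B did not pass, at an adjusted p of 0.054.

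Among 13 transcription factors known to act on family genes, 1 was called, against 4.79% of all genes tested. MYB, which is known to bind the BCL2 promoter, fell from 205 and 202 to 95.4 and 123 normalized CPM, with a log2 fold change of -0.90 ± 0.17 (SE), at an edgeR adjusted p of 0.013, which was -0.72 with an adjusted p of 0.12 without RUNX1::ERG replicate 1. The STAT5 genes, named after their values were seen, are known to drive BCL2L1 downstream of BCR::ABL1. STAT5A was at 376 and 413 against 555 and 504 normalized CPM. Both RUNX1::ERG libraries lay above both empty vector libraries, as for 25.1% of all genes tested. It was not called, with a log2 fold change of 0.43 ± 0.14 (SE) and an edgeR adjusted p of 0.14. STAT5B was at 275 and 211 against 240 and 250, with overlapping groups, a log2 fold change of 0.01 ± 0.17 (SE) and an edgeR adjusted p of 0.99. The part of the STAT5 genes in the BCL2L1 values was not tested.

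Among 9138 tested genes with a mean of at least 10 CPM, those whose log2 levels over the 4 libraries lay nearest to BCL2L1, each centred on its own mean, were CCDC69, MTURN and CCDC28B, at Euclidean distances of 0.013, 0.044 and 0.065. CCDC69 was at 30.5 and 27.9 against 54.7 and 49.1 normalized CPM. The distances rest on 4 libraries and are a description only.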

How the data were processed

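WTS counts were available for 2 empty vector and 2 RUNX1::ERG libraries of K562 cells, grouped by their titles. The files the authors deposited hold raw counts for each gene, 1 file for each library, by NCBI gene number. The submitters' processing notes name HISAT2 2.2.1, featureCounts 2.0.1 and hg19, and the annotation and strand setting are not given in the sources used here. Of the counts from 1 to 10, 66.7% to 68.9% were even, as when both mates of a pair are counted, so fragments are fewer than counts. Symbols came from RefSeq (92.2% of 25702 genes matched), positions and lengths from GENCODE v44 on GRCh37, and promoter windows from RefSeq on GRCh38.p14.

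Genes were tested in R 4.3.3 with edgeR 4.0.16 (TMM scaling, its low-count filter, quasi-likelihood test, Benjamini-Hochberg adjustment over 15394 genes, threshold 0.05), a procedure tested on simulated data. The simulated spread between replicates was a set value, a dispersion of 0.04. There the procedure called 44.8% of genes with a true log2 fold change of size 1 and 97% at size 2. A gene that was not called can thus still have changed. The standard error was the log2 fold change over the square root of F. The study's methods used DESeq2, kept as an alternative (1.42.0) with limma 3.58.1, other scalings, no filter, halved counts, a replicate block and leaving out each library. Named genes were the 10 members, RUNX1, ERG, every called gene of each pathway list (or its largest changes, to name 2) and the 3 genes nearest to the member with the lowest adjusted p. Some genes are not reported here. Members and lists were chosen with earlier results of these data known.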

Additional observations from a re-analysis of the deposited data

How the results depend on the processing

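Of the 10 members, BCL2L1 kept its call under every change of scaling, filter or test, and lost it in the fit without RUNX1::ERG replicate 1. The number of members called was 3 without the filter on low counts, where BCL2A1 (2.24, adjusted p = 0.011 from edgeR) and BBC3 (-0.79, adjusted p = 0.0045) passed, and 2 with the replicate block, where BCL2A1 passed (2.34, adjusted p = 0.036). It ran from 0 to 3 with each library left out. BCL2L11 was at 0.01 with library totals. With each library left out, log2 fold changes ran from 0.75 to 0.89 for BCL2L1, from 1.56 to 3.46 for BCL2A1, from -0.05 to 0.58 for BCL2, from -0.06 to 0.25 for BAK1, from -0.19 to 0.11 for BCL2L11, from -1.45 to 0.46 for BBC3, from -0.95 to -0.03 for PMAIP1, from 0.00 to 0.75 for HUWE1, from 0.11 to 2.85 for BIRC3 and from -1.64 to 0.09 for DDIT3. Pathway genes called numbered 5, and 10 without the filter, 11 with the replicate block and 1 to 10 with a library left out. Over all genes, 737 were called, 76% of them higher, against 1500 (64.1%) without the filter, 1194 with the DESeq2 Wald test (66.7%) and 1733 with the block (62.4%), and 286 to 1336 with a library left out. The split was 54.9% without empty vector replicate 2. Same-numbered libraries deviated together with r = 0.35 over genes, but no label ties a number to a batch, and the libraries were taken as unpaired. By the longest transcript, BAX made up 40.3% and 48% of the pro-apoptotic level per kilobase with the empty vector and RUNX1::ERG, against 32.7% and 39.4%, and BAK1 13.7% and 14.9%, against 21.1% and 23.2%. With RUNX1::ERG, BID then made up 18.3%, against 16.2%, and PMAIP1 6.84%, against 9.28%, and with the empty vector BCL2 made up 0.087% of the anti-apoptotic level, against 0.0684%. The cause of these shifts was not tested. BCL2 and BCL2A1, with at most 100 counts in a library, are the members that depth limits most.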
